A study of Homo sapiens with 2 samples.

Results

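The genes described here encode the subunits of the human proteasome. They were chosen by name: 14 core subunits, 19 regulatory subunits, 5 immune subunits and 2 other activators, 40 of the 20136 protein-coding genes in the annotation. The cells were HT-29, an established line from a human colorectal adenocarcinoma, grown overnight in culture with no treatment named in the labels, so the values are those of 1 line under 1 condition. The data consist of 1 chromatin immunoprecipitation library made with an antibody to SOX9, a transcription factor of the SOX family that these cells express, and 1 library of input DNA from the same line. Each library holds 12320108 uniquely aligned tags. With 1 library of each kind no value has a replicate error, and no difference between conditions or subunit groups was tested. The intervals of tags cover counting error only. Those of shares reflect only the number of genes or peaks counted, since the gene lists were fixed. For every gene, SOX9 peaks whose summit lay within 1 kb of a transcription start site (TSS) were collected, together with the ChIP and input signal at the reference TSS, that of the annotation's canonical transcript. All coordinates are on hg19.

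The proteasome is the protease that degrades ubiquitin-tagged proteins in the cytosol and the nucleus. Its core is a barrel of stacked rings. The outer rings are built from alpha subunits (PSMA genes) and the inner rings from beta subunits (PSMB genes), and PSMB5, PSMB6 and PSMB7 carry the catalytic sites. The regulatory particle sits on the end of the barrel: its base holds a ring of ATPases (PSMC genes) that unfold substrates and pull them in, and its lid removes ubiquitin. Interferon gamma induces replacements for the catalytic subunits (PSMB8, PSMB9 and PSMB10) and an alternative cap (PSME1 and PSME2), which change the peptides made for antigen presentation. Transcription of the constitutive subunits can be raised together by NFE2L1, which acts through antioxidant response elements, while the immune subunits respond to interferon regulatory factors (IRFs).

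The promoters that bear most on the results are shown first, on the strand of the gene. The stretches below lie around the summit of the SOX9 peak with the most tags in the core, regulatory and immune groups, cut to the part outside annotated exons. For the other activators no stretch outside exons was left. Capitals mark CCAAT or its complement ATTGG in PSMD8 and the antioxidant response element, searched as TGACNNNGC, in PSMA7. The PSMB9 stretch holds neither in full. An antioxidant response element centred 64 bp upstream of the PSMB9 summit ends at the first base of the stretch and is cut off. CCAAT was found 1 time in PSMB9 between 250 bp upstream and 50 bp downstream of the reference TSS.
PSMA7, chr20:60718559-60718678, minus strand: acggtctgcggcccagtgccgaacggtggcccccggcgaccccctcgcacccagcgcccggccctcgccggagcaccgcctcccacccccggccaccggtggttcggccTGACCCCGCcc
PSMD8, chr19:38865064-38865183, plus strand: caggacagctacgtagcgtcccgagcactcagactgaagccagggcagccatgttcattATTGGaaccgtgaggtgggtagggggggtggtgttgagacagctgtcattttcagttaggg
PSMB9, chr6:32821829-32821924, plus strand: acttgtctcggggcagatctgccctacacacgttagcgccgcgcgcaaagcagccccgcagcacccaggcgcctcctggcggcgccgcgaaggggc

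A further element was searched for in the promoters of the immune genes. In the window from 250 bp upstream to 50 bp downstream of the reference TSS, 4 of the 5 immune genes held the IRF element, searched on both strands as GAAA, any 2 bases and GAAA. It was found in 1 of 14 core genes (PSMB4), in 0 of 19 regulatory genes (upper Wilson limit 16.8%), and in 3.33% of all 20136 promoter windows. The element is in capitals, as GAAA repeats or their complement.
PSMB8, chr6:32811809-32811838, minus strand: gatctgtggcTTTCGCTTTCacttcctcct
PSMB10, chr16:67970755-67970784, minus strand: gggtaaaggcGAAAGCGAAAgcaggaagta
PSME1, chr14:24605398-24605427, plus strand: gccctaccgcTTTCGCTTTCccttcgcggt
PSME2, chr14:24615828-24615857, minus strand: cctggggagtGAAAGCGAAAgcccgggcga
PSMB4, chr1:151371971-151372000, plus strand: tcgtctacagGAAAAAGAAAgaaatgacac
All 4 immune elements began within 28 bp of the reference TSS. None of these 4 genes had a SOX9 summit within 250 bp of the reference TSS. PSMB9, in which these exact letters were not found in the window, had one. A relation between the element and SOX9 was not tested in these 5 genes. The PSMB4 element was centred 20 bp from the SOX9 summit of that gene.

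SOX9 peaks were present at the promoters of nearly all core and regulatory subunit genes and of fewer immune subunit genes. A summit lay within 1 kb of a TSS in 34 of the 40 genes (85%, Wilson 95% interval 70.9 to 92.9%). Among all protein-coding genes 44.9% had such a peak. Because most subunit promoters are rich in CpG, the same share was taken, after the data had been seen, over CpG-rich promoters (GC content of at least 50% and a ratio of observed to expected CpG of at least 0.6 in the promoter window). It was 60.3% of 13078 genes with such a promoter and 16.2% of the other 7058. Of the 40 subunit genes, 34 had a CpG-rich promoter, but these were not the same 34 genes that had a peak. PSMA3, PSMA6, PSMD2 and PSME1 had a CpG-rich promoter and no peak. PSMB1, PSMC1, PSMC2 and PSMD8 had a peak without a CpG-rich promoter. By group, the peak was present in 12 of 14 core genes (85.7%, interval 60.1 to 96.0%), 18 of 19 regulatory genes (94.7%, 75.4 to 99.1%), 2 of 5 immune genes (40%, 11.8 to 76.9%) and both other activators. The intervals of the immune group overlap those of every other group.

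**Figure D1:**
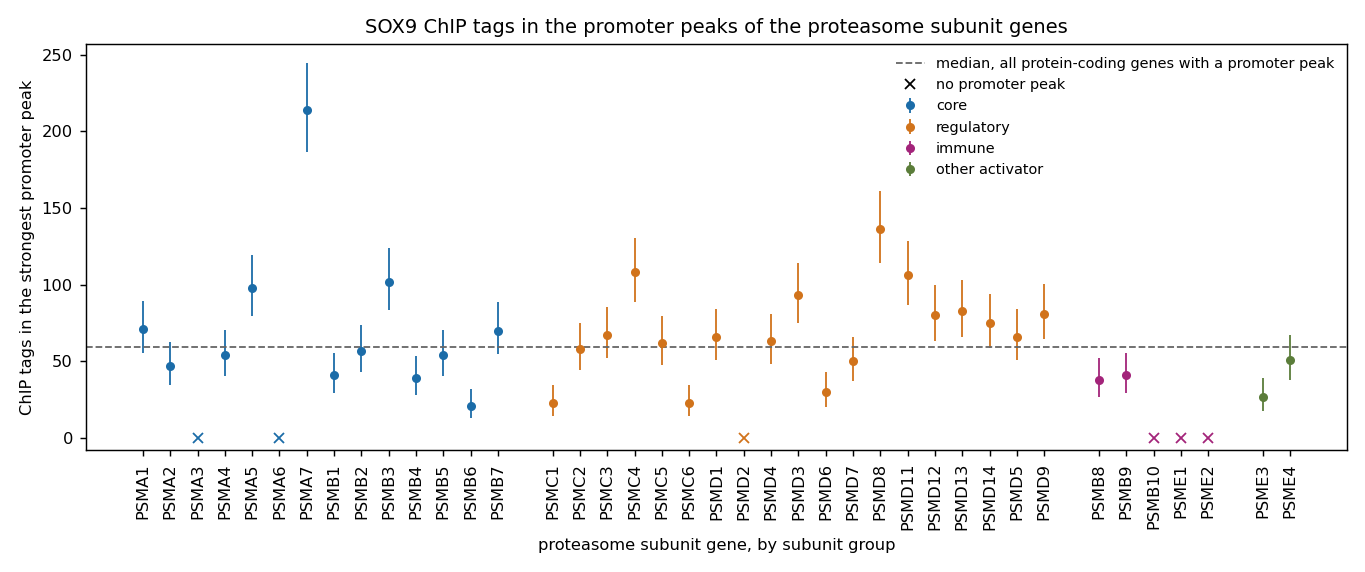
ChIP tags in the strongest promoter peak of each of the 40 proteasome subunit genes, by subunit group, with exact Poisson 95% intervals (counting error only). Crosses at 0 mark the 6 genes without a promoter peak, and the dashed line is the median of 59 tags over the 9033 protein-coding genes with one. PSMA7 stands at 214 tags, above the other 33.

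Although a peak was more often present than over the genome, the peaks were of ordinary height. The strongest promoter peak of the 34 genes held a median of 62.5 tags (quartiles 42.5 and 80.75, range 21 to 214). Over the 9033 protein-coding genes with a promoter peak the median was 59 (quartiles 41 and 86). Of the 34, 18 were above that median, 7 were below the lower quartile, and PSMA7 and PSMD8 stood at the 97.01 and 91.3 percentiles. The median fold enrichment over the local input was 11.03, against 10.12 over all genes. By group, the median was 55.5 tags in core genes, 66.5 in regulatory genes, 39.5 in the 2 immune genes and 39 in the 2 other activators.

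The alpha ring held both the strongest peak and 2 of the genes without one. PSMA7 had 214 tags (Poisson 95% interval 186 to 245) at a fold enrichment of 34.59 in a peak at chr20:60718097-60719920, with a highest ChIP signal of 80 extended tags per bin against 8 in the input. The summit lay 123 bp upstream of the nearest TSS of PSMA7 and 206 bp upstream of SS18L1, which is transcribed the other way. PSMA5 had 98 tags (79.6 to 119) and PSMA1 71 (55.5 to 89.6). PSMA4 had 54 tags and PSMA2 had 47, and the PSMA2 summit also lay 101 bp upstream of MRPL32, a mitochondrial ribosomal protein gene on the other strand. PSMA3 and PSMA6 had no peak. The ChIP signal in the bin of the reference TSS was nevertheless 14 against 5 in the input at PSMA3, and 8 against 3 at PSMA6.

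All 7 constitutive beta subunit genes had a promoter peak. PSMB3 was highest with 102 tags (83.2 to 124) and a signal of 41 at the TSS against 7 in the input, and it had a second peak of 51 tags 899 bp upstream. PSMB7, a catalytic subunit, followed with 70 tags. PSMB2 had 57 and PSMB5, the subunit that proteasome inhibitors such as bortezomib bind, had 54. PSMB1 had 41 tags, with the TSS of TBP 981 bp away on the other strand, and PSMB4 had 39. PSMB6 was the lowest of all members with 21 tags (13.0 to 32.1), a MACS score of 87.22, and a signal of 14 against 0 in the input at the TSS.

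In the regulatory particle, each of the 6 ATPase genes of the base had a promoter peak, and 2 of these were among the lowest of the members by tags. PSMC4 had 108 tags (88.6 to 130), yet a fold enrichment of only 4.76, at the 1.04 percentile of all promoter peaks, and a highest input signal of 13 in the peak. PSMC3 had 67 tags, with a summit 209 bp downstream of the reference TSS and 5 bp upstream of another TSS of the gene. PSMC5 had 62 tags at a summit 302 bp upstream of the reference TSS and 23 bp upstream of FTSJ3, on the other strand. PSMC1 and PSMC6 had 23 tags each (14.6 to 34.5), at fold enrichments of 18.7 and 13.1, the 85.0 and 69.3 percentiles of all promoter peaks. The strongest peak assigned to PSMC2, of 58 tags, lay 2820 bp upstream of its reference TSS and 7 bp from the TSS of DNAJC2, on the other strand. A second PSMC2 peak of 46 tags lay 25 bp downstream of the reference TSS.

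The other base subunits act as scaffold and ubiquitin receptors. PSMD1, the large scaffold, had 66 tags and, among the strongest peaks of the 34 genes, the summit farthest from a TSS, 193 bp upstream. PSMD4, a ubiquitin receptor, had 63 tags at a fold enrichment of 20.18. PSMD2, the other large scaffold protein, had no peak; its TSS had a signal of 9 against 0 in the input, and the highest bin within 250 bp had 14 against 5. The chaperones of base assembly, PSMD9 and PSMD5, had 81 and 66 tags. The PSMD9 summit lay 10 bp upstream of a long noncoding RNA on the other strand, and that of PSMD5 was 7 bp from the TSS of CUTALP, a transcribed pseudogene.

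In the lid a peak was present in 8 of 8 genes, with a median of 81.5 tags and a median fold enrichment of 10.785. In the base ATPases the medians were 60 tags and 12.425. PSMD8 had 136 tags (114 to 161) and PSMD11 had 106 (86.8 to 128). PSMD3 had 93 tags, PSMD13 83, PSMD12 80 and PSMD14, the enzyme that removes ubiquitin chains, 75. PSMD7, its partner in the lid, had 50 tags and PSMD6 had 30 (20.2 to 42.8). The PSMD13 promoter is shared with SIRT3, a mitochondrial deacetylase gene, and the summit was nearer to SIRT3 (12 bp upstream) than to PSMD13 (95 bp upstream). Noncoding transcripts named PSMD7-DT and PSMD14-DT start 50 and 38 bp from the summits of the genes they are named for.

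Of the immune subunit genes, PSMB9 was the one with SOX9 signal above input at its reference TSS and a peak next to it. Its peak held 41 tags (29.4 to 55.6) at a fold enrichment of 6.46, and lay 80 bp upstream of the reference TSS and 296 bp upstream of TAP1, which encodes a subunit of the peptide transporter of antigen presentation and starts on the opposite strand. The PSMB8 peak of 38 tags (26.9 to 52.2) lay 807 bp upstream of the PSMB8 reference TSS, 175 bp upstream of an alternative TSS and 18 bp from the start of an annotated PSMB9 transcript, so the same peak counts for both genes. At the reference TSS the ChIP signal of PSMB8 was 3 against 4 in the input. PSMB10 had no peak and a signal of 4 against 6. PSME1 had 2 against 2 and PSME2 had 4 against 1, also without a peak. A peak of 50 tags near PSME2 lay 4891 bp downstream of its reference TSS, 128 bp upstream of EMC9.

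These values can be set beside those of the constitutive subunits that the immunosubunits replace. The highest ChIP signal within 250 bp of the reference TSS was 22 at PSMB5 against 5 at PSMB8, and 39 at PSMB7 against 4 at PSMB10. For the remaining pair it was 15 at PSMB6 against 18 at PSMB9, with an input of 2 and 5, a difference within counting error. PSMB6 had fewer tags in its peak than PSMB9, 21 against 41, at a higher fold enrichment, 15.31 against 6.46. The PSMB8 peak, 807 bp upstream of the reference TSS, lay outside the 250 bp searched here. It held 38 tags (26.9 to 52.2) against 54 (40.6 to 70.5) at PSMB5, with overlapping intervals.

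The other activators differed in where the peak lay. PSME4, which encodes the nuclear activator PA200, had 51 tags (38.0 to 67.1) 5 bp upstream of its TSS and 110 bp upstream of ACYP2 on the other strand, and a further peak of 60 tags 1520 bp inside the gene. The PSME3 peak of 27 tags (17.8 to 39.3) lay 9072 bp upstream of the reference TSS of PSME3 and 37 bp upstream of BECN1, an autophagy gene transcribed the other way, and counted for PSME3 through an annotated transcript that starts there. It had the lowest score and, at 0.06%, the highest empirical FDR of the member peaks. At the PSME3 reference TSS the signal was 13 against 8 in the input.

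**Figure D2:**
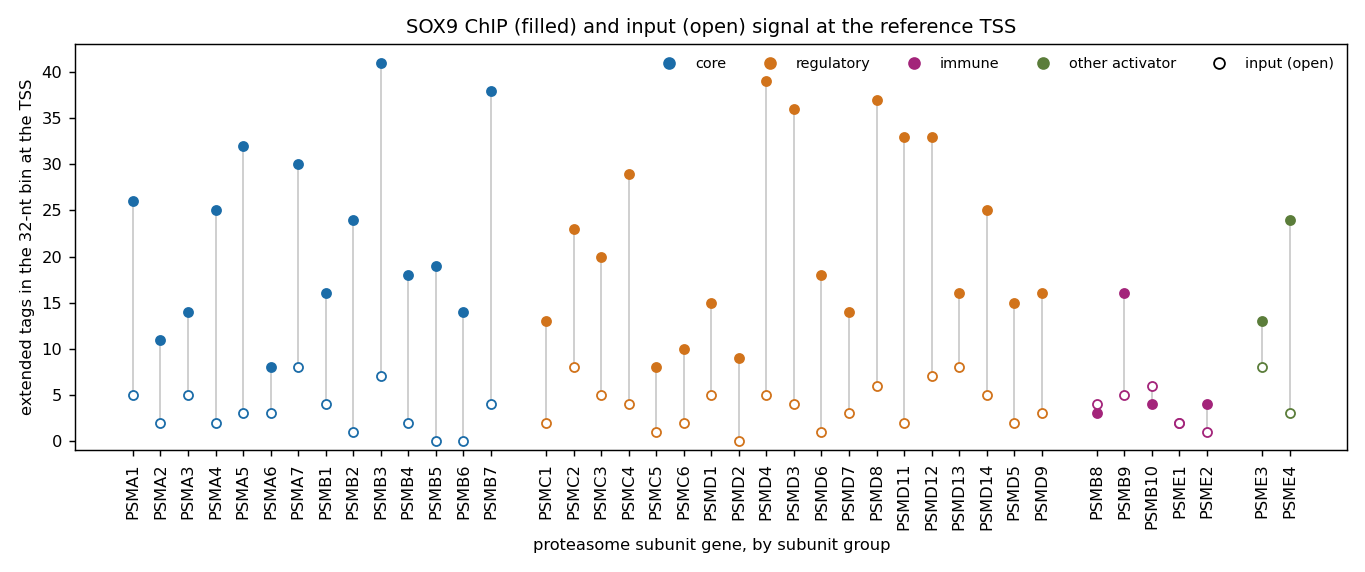
Extended tags in the 32-nt bin at the reference TSS of each of the 40 genes, in the SOX9 ChIP (filled points) and the input (open points), by subunit group. ChIP lies above input at all core, regulatory and other activator genes, and among the immune genes at PSMB9 (16 against 5) and PSME2 (4 against 1).

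The signal at the TSS, which does not depend on a peak call, was lowest in the immune genes. Over the 40 genes the median ChIP signal was 17 extended tags per bin and the median input signal 3.5, against 5 and 1 over all protein-coding genes. The median was 21.5 in core genes (range 8 to 41) and 18 in regulatory genes (8 to 39), with input medians of 3 and 4. In the 5 immune genes it was 4, equal to the input median of 4, with a range of 2 to 16. Of the core and regulatory genes none fell below 8, whereas among the immune genes only PSMB9 reached that value.

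Averaged over each group, the ChIP signal was highest just upstream of the reference TSS. The highest mean was 26.9 in core genes, 64 bp upstream, and 24.2 in regulatory genes, 32 bp upstream. It was 7.6 in immune genes and 10.7 over all protein-coding genes, both 64 bp upstream. The highest mean input signal was 3.5, 4.21 and 4 in core, regulatory and immune genes.

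**Figure D3:**
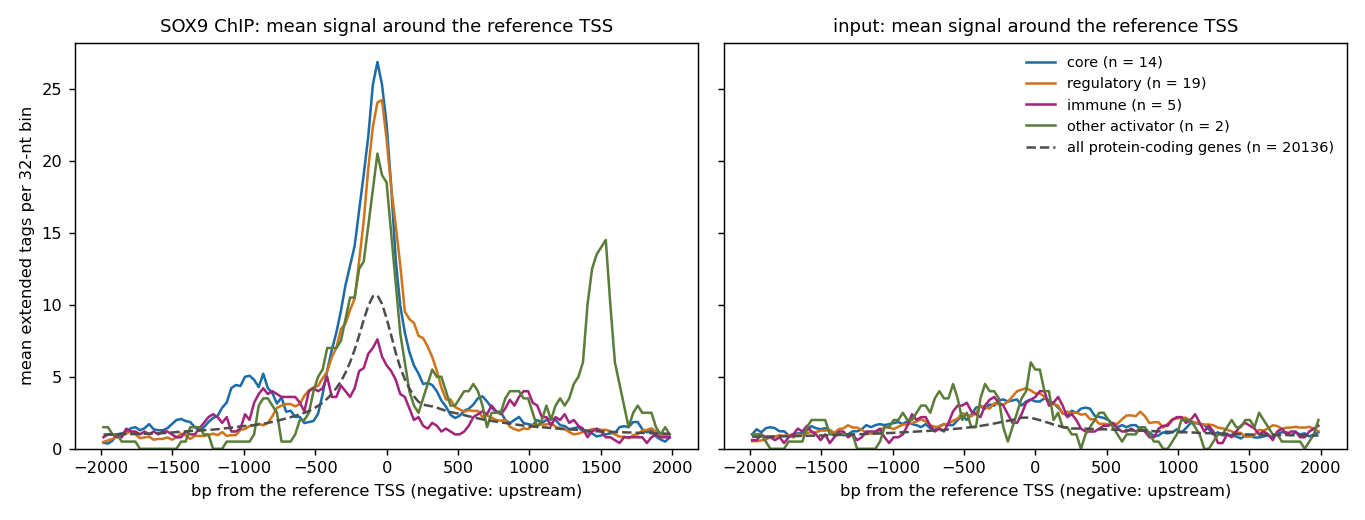
Mean extended tags per 32-nt bin by distance from the reference TSS in the SOX9 ChIP (left) and the input (right), for each subunit group and for all protein-coding genes (dashed). Core and regulatory genes reach 26.9 and 24.2 in the ChIP, and immune genes 7.6; the second maximum in the curve of the other activators, which averages 2 genes, comes from the PSME4 peak 1520 bp downstream.

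The summits kept close to the TSS. The median distance to the nearest TSS of the gene was 46.5 bp upstream, and 49 bp upstream over all protein-coding genes with a promoter peak. In 33 of the 34 genes (97.1%) the summit was at or upstream of that TSS, compared with 74.7% over all genes, and in 29 (85.3%) it was within 100 bp, compared with 61.0%. PSMD11 was the exception in direction, with a summit 40 bp downstream of the nearest TSS, which is 91 bp upstream of its reference TSS. When only the reference TSS was counted, 33 of the 40 genes had a summit within 1 kb and 40.9% of all protein-coding genes did. PSME3 was the gene lost.

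Motifs were searched for around the summits. The CCAAT box, the letters that NF-Y recognizes, was within 100 bp of 8 of the 34 member summits (23.5%, interval 12.4 to 40%) and of 30.7% of the 8655 promoter peaks of all protein-coding genes. Motif 1 is a longer form of it (a pair of purines, CCAAT, then C or G and a purine). It was near 1 member summit, that of PSMB3 (2.94%, 0.521 to 14.9%), and near 14.8% of all promoter summits. Motif 2, the SOX consensus (a pair of A or T, CAA, A or T, and G), was near the summits of PSMD1 and PSMD3, 5.88% against 7.68%. Motif 3 was searched as a Motif 2 and its inverted copy 4 bp apart, in either order, with up to 2 mismatches allowed in 1 copy. It was near no member summit (0 of 34, upper Wilson limit 10.2%) and near 0.924% of all promoter summits.

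The ETS core, CCGGAAG, was found near 12 member summits (35.3%, 21.5 to 52.1%) and near 16.05% of all promoter summits. It was near 9 of 18 regulatory summits (50%, 29.0 to 71.0%) and 2 of 12 core summits (16.7%, 4.70 to 44.8%), with overlapping intervals. The regulatory genes were PSMC1, PSMC2, PSMC6, PSMD6, PSMD8, PSMD9, PSMD12, PSMD13 and PSMD14, and the PSMC2 match was at the peak beside DNAJC2. The promoter windows gave similar shares, 10 of 19 regulatory and 3 of 14 core genes, and 13.99% of all genes. In 3 genes the letters were centred within 8 bp of the summit and are shown in capitals.
PSMB1, chr6:170862395-170862421, minus strand: tcaggagaagCCGGAAGtggcgtaacg
PSMB7, chr9:127177751-127177777, minus strand: gccagcgacgCCGGAAGtgctcggctc
PSMD6, chr3:64009191-64009217, minus strand: ggagacgggaCCGGAAGccgggccgca
Motif 1 was not found in the promoter windows of these 3 genes, and 12.9% of all promoter windows held it. The shorter CCAAT was found 2 times in the window of PSMB1 and 1 time in that of PSMD6. It was not found in that of PSMB7.

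The antioxidant response element, through which NFE2L1 acts on these genes, was near 10 of the 34 summits (29.4%, 16.8 to 46.2%) and near 11.02% of all promoter summits. The genes were PSMA7, PSMB3 and PSMB6 in the core, PSMC3, PSMC4, PSMD3, PSMD5 and PSMD9 in the regulatory particle, PSMB9 and PSME4. In PSMD3 the element was centred on the summit itself, and shared its first base with the end of a Motif 2 match, and in PSMC3 the same letters were 14 bp from the summit.
PSMD3, chr17:38137013-38137041, plus strand: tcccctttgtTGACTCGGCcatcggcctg
PSMC3, chr11:47447781-47447809, minus strand: gagagtccagTGACTCGGCaggagaagat
PSMB3, chr17:36908880-36908908, plus strand: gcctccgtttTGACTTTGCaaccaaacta
PSMD5, chr9:123605316-123605344, minus strand: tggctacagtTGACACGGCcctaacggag
PSMD9, chr12:122326584-122326612, plus strand: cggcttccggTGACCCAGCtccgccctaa
In PSMD9 the element directly follows an ETS core in reverse (cttccgg). The GC box, GGGCGG, was near 17 of the 34 summits (50%) and near 61.3% of all. A match says only that the letters are there.

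**Figure D4:**
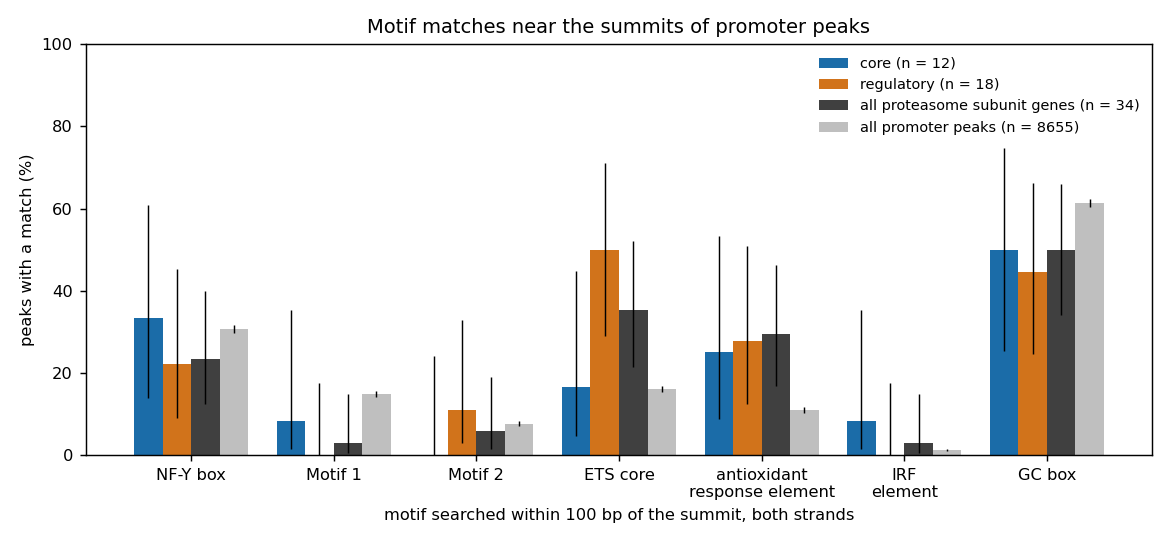
Share of promoter peaks with a match within 100 bp of the summit, for core, regulatory and all proteasome subunit genes and for all promoter peaks of protein-coding genes, with Wilson 95% intervals (which reflect the number of peaks only). NF-Y box stands for CCAAT. The ETS core stands at 50% of regulatory peaks against 16.05% of all, and the antioxidant response element at 29.4% of member peaks against 11.02%.

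Tags were more numerous in genes with more input DNA around them. As a measure of it, chosen after the data had been seen, the mean input signal in a 1 Mb window centred on the TSS was divided by the median of all autosomal genes. The ratio was 1.80 at PSMB3 and PSMD8, 1.71 at PSMD12, 1.46 at PSMA7 and 1.45 at PSMC4, and lowest at PSMB1 with 0.578. Across the 34 genes with a peak, tags and the ratio had a Spearman rho of 0.744 and a Pearson r of 0.687, given as a description, since both libraries come from the same cells. Over all 9033 genes with a promoter peak rho was 0.394. Fold enrichment, which is computed against the local input, had a rho of -0.198 with it over the same 34 genes. Divided by the ratio, the tags had medians of 56.1 in core and 61.8 in regulatory genes, and PSMA7 remained highest with 146, followed by PSMA5 with 94.6 and PSMD9 with 88.1.

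The genes without a peak lay mainly where the input was low. All 7 subunit genes of chromosome 14 had ratios between 0.648 and 0.705. Of these, 3 had a peak (PSMB5, PSMC1 and PSMC6), and PSMA3, PSMA6, PSME1 and PSME2 did not, whereas 31 of the 33 genes on other chromosomes had one. Among all 616 protein-coding genes of chromosome 14, 43.2% had a promoter peak, and 44.9% of those on other chromosomes. In the lowest quartile of local input over all genes the share was 30.5%, and 6 of the 10 subunit genes there had a peak. Outside that quartile it was 28 of 30, and 49.7% of all protein-coding genes. The missing 2 were PSMB10, with a ratio of 1.12, and PSMD2, with a ratio of 1.00. The part of local input in the missing peaks was not tested. Within chromosome 14, the highest ChIP signal within 250 bp was 17 at PSMA3, 12 at PSMA6, 22 at PSMB5, 13 at PSMC1 and 11 at PSMC6, and 9 at PSME1 and 6 at PSME2. The 2 immune genes had the lowest of these values, and PSMA3 and PSMA6, which had no peak, were above PSMC6, which had one. These are counts in single bins, and the differences between 9 at PSME1, 11 at PSMC6 and 12 at PSMA6 are within counting error.

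**Figure D5:**
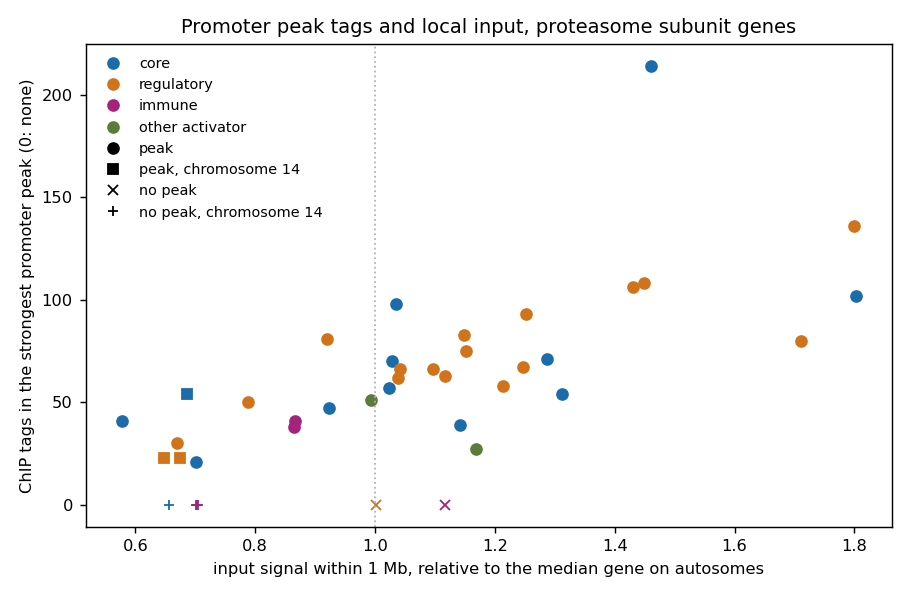
ChIP tags in the strongest promoter peak (0 for genes without one) against local input, for the 40 subunit genes by group. Local input is the input signal in a 1 Mb window centred on the TSS, relative to the median autosomal gene. Squares and plus signs are genes of chromosome 14. The 5 genes with the most tags have ratios of 1.43 or more, and 4 of the 6 genes without a peak are on chromosome 14.

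Genes that work with the proteasome were taken from a further list of 40. Against 44.9% of all protein-coding genes and 60.3% of those with a CpG-rich promoter, 30 of these (75%) had a promoter peak. The assembly factors and associated proteins had one in 13 of 14 genes, PSMD10 being the gene without (signal 8 at the TSS against 2 in the input). ADRM1, a ubiquitin receptor of the base, had 203 tags, and POMP, which matures the core, 155. Among the ubiquitin and p97 genes 7 of 8 had a peak. UFD1, a p97 cofactor, had 330 tags at a promoter shared with CDC45. UBA1, the ubiquitin-activating enzyme, had 176 in a peak 3085 bp upstream of its reference TSS and 47 in a peak 54 bp upstream of it. UBB had none, with a signal of 10 against 0. All 4 regulators of proteasome gene transcription, NFE2L1, NFE2L2, DDI2 and NGLY1, had a peak, with 165 tags at NFE2L1. The NGLY1 peak lay 6574 bp upstream of its reference TSS and 73 bp upstream of OXSM. With the reference TSS alone, 3 of the 4 regulators, 11 of the 14 assembly and associated genes and 27 of the 40 genes had a peak. The share over all protein-coding genes was then 40.9%. Antigen presentation genes had a peak at any TSS in 6 of 12 (50%, interval 25.4 to 74.6%), near the 44.9% over all protein-coding genes. The peaks of TAP1 (the PSMB9 peak) and TAP2 held 41 and 50 tags, while TAPBP, B2M and NLRC5 were among those with none. The TSS signal at B2M was 18 against 4 in the input. The core subunits of testis and thymus, PSMA8 and PSMB11, had no peak and a signal of 0 in both libraries.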

How the data were processed

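SOX9 ChIP-seq and input DNA were sequenced from HT-29 cells, 1 library each. The culture medium is DMEM in the labels and McCoy's 5A in the methods. Single-end reads of 50 nt were aligned by the authors to hg19 with BWA, and the authors kept unique alignments, removed duplicates, downsampled the input to 12320108 tags and called 17847 peaks with MACS (p cut-off 1e-07). In the deposited peak table the tags are counts of ChIP tags, the fold enrichment is a ratio to the local expectation from the input, the score is the negative log10 p-value times 10 and the FDR is an empirical percent. The deposited signal maps give, for each bin of 32 nt, how many tags cover it once lengthened to 150 bp, without other scaling.

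From these files, summits (interval start plus summit offset minus 1) were placed on GENCODE release 44 mapped to hg19. A gene had a promoter peak when a summit lay within 1 kb of a TSS of any of its transcripts, and its strongest peak was that with the most tags. Sequences were read from the GRCh37 genome, and motif matches on either strand were sought up to 100 bp from each summit and in windows of 300 bases at the reference TSS. Shares have Wilson and tags exact Poisson 95% intervals. Distances and motif searches were tested on simulated data. With 1 library per group no test was made. All 40 members were named, as were the other pathway genes with the most tags, most of those without a peak (some are not reported here), POMP, NFE2L2, DDI2, NGLY1 and TAP2, and genes sharing a member's promoter. The members, lists and motifs were chosen with earlier results of these data known, and CpG-rich promoters and local input after the files were seen. The work used pandas 2.3.3, SciPy 1.17.1, matplotlib 3.10.9 and NumPy 2.4.6 under Python 3.11.15.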

Additional observations from a re-analysis of the deposited data

How the results depend on the processing

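With 1 library of each kind no library could be left out, so the results have no replicate check. No paired analysis was possible because each group has 1 sample. Of 98 alternative values, 86 stayed within the limits set for a change and 12 moved. The count of 34 genes with a promoter peak became 31 with a MACS score of at least 100 (35.9% of all protein-coding genes), which loses PSMB6, PSMC4 and PSME3, became 33 with the reference TSS alone (40.9%), and became 35 within 3 kb (47.6%), which gains PSME2. Of the other activators 1 gene kept its peak under the score limit, and 1 with the reference TSS. The PSMB9 peak 80 bp upstream of its reference TSS had a score of 74.12 and was lost under the score limit. PSMB9 stayed in the count only through the PSMB8 peak (score 109.34), 9338 bp upstream of the PSMB9 reference TSS. The 2 immune genes counted under that limit therefore share that peak. The median position of the summit moved to -79 bp with the reference TSS. The immune genes' median percentile of TSS signal among protein-coding genes, 47.0, became 22.9 with input subtracted. With motifs searched within 250 bp of the summit, CCAAT was near 17 member summits (50%, against 45.6% of all promoter summits), so that its share turned from below to above that of all promoters. Motif 2 was near 5 (14.7% against 18.8%), the IRF element near 2 (5.88% against 3.95%) and the GC box near 26 (76.5% against 81.3%). Within 50 bp, Motif 1 was near 0 (10.9% of all), Motif 2 near 1 (2.94% against 3.998%), the antioxidant response element near 6 (17.6% against 5.96%) and the GC box near 11 (32.4% against 39.5%). Among alternatives added after seeing the data, 31 of the 33 genes off chromosome 14 and 28 of the 30 above the lowest quartile of local input had a peak, and tags divided by local input had a median of 56.5. Low tag counts limit the immune genes, where 2 to 16 tags stand at the TSS.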
